A study of Mus musculus with 4 samples.

Results

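The Rhox genes are a tandem family of homeobox genes on the mouse X chromosome. Members were taken as the genes of the mm10 RefSeq annotation whose symbol is Rhox followed by a number, and 42 of the 49554 annotated genes of the autosomes and X met this rule. They comprised 33 protein-coding genes, 8 pseudogenes and 1 long non-coding RNA, and with 2 kb added on each side they spanned 1.10 Mb of X, from base 37211804 to base 38308028. Methylation was compared between 2 Ogt iKO libraries and 2 control libraries of mouse embryonic stem cells, all from cells of the genotype Ogt fl/fl. The iKO cells were grown with 4-hydroxytamoxifen (4-OHT) for 6 days, and the control cells without it. Cells grew on mitomycin C-treated mouse embryonic fibroblasts, and sorting of viable cells removed these feeders. Only the 4-OHT-treated cells were also sorted for YFP, so the drug, the reporter gate and the knockout cannot be told apart. One floxed genotype was used, and the labels do not say whether replicates came from separate cultures, so no p-value reaches beyond these libraries. For single genes and windows, p-values rest on read counts and a dispersion moderated across all genes or windows, not only on each one's own spread.

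Rhox genes encode transcription factors with a homeodomain, and most are expressed in the testis, ovary, epididymis or placenta. The cluster is commonly divided into the subclusters alpha (Rhox1 to Rhox4), beta (Rhox5 to Rhox9) and gamma (Rhox10 to Rhox13), and in the alpha subcluster Rhox2, Rhox3 and Rhox4 are repeated many times as lettered copies. DNA methylation is known to take part in silencing genes of the cluster in the embryo proper. The libraries used here do not measure expression, so which members are silent in these cells was not tested. Ogt encodes the O-GlcNAc transferase, which modifies nuclear and cytosolic proteins and binds the TET dioxygenases that oxidise 5-methylcytosine. Bisulfite sequencing counts 5-methylcytosine and 5-hydroxymethylcytosine alike as methylated.

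Some of the lettered copies have promoters that are identical or nearly so, and others match less well over the 250 bases before their annotated starts. Annotated starts at different bases lower this identity, so it does not measure sequence divergence alone. Rhox2b shared a run of 228 bases with another Rhox2 promoter, yet its highest identity was 83.8%. For Rhox4a the run was 224 bases and the highest identity 81.8%. Over the pairs of copies with a promoter, identity ran from 71.3% to 99.6% for Rhox2 (median 85.9%), from 48.2% to 100% for Rhox3 (median 51.6%) and from 60.5% to 96.4% for Rhox4 (median 82.8%). The promoters below are the 250 bases before an annotated start, printed 5′ to 3′ from RefSeq (GRCm38.p6) with each CpG in capitals. They are shown because 2 of them cannot be told apart, 3 differ by at most 2 bases, and the last 3 belong to members with no lettered copy. Rhox3a lies at chrX:37249669-37249918 on the plus strand and Rhox3h at chrX:37668765-37669014 on the minus strand. Rhox2a (chrX:37244742-37244991), Rhox2c (chrX:37453409-37453658), Rhox2e (chrX:37530218-37530467), Rhox5 (chrX:37754358-37754607) and Rhox13 (chrX:38120590-38120839) are on the plus strand, and Rhox1 (chrX:37222259-37222508) is on the minus strand.
Rhox3a: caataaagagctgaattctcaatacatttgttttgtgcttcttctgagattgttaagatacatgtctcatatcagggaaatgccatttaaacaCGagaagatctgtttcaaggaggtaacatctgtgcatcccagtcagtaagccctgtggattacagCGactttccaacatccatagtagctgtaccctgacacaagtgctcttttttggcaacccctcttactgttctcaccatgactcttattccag
Rhox3h: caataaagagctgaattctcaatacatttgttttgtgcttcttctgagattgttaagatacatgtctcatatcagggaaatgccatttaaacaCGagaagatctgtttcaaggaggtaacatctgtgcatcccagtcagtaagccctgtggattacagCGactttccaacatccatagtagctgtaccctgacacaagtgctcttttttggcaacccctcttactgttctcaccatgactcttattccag
Rhox2a: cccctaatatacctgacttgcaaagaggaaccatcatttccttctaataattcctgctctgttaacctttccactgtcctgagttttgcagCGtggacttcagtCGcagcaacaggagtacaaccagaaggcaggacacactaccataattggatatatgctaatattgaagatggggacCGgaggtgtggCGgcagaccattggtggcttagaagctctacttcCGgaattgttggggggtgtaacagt
Rhox2c: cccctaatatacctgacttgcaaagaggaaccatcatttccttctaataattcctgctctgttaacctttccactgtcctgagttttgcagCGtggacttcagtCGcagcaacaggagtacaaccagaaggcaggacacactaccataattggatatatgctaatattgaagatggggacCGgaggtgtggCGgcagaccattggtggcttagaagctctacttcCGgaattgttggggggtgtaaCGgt
Rhox2e: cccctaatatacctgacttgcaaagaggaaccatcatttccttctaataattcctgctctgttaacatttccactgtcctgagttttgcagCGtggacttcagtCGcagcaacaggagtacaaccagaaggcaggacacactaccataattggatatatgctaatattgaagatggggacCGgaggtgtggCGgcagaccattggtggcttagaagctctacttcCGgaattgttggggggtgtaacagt
Rhox5: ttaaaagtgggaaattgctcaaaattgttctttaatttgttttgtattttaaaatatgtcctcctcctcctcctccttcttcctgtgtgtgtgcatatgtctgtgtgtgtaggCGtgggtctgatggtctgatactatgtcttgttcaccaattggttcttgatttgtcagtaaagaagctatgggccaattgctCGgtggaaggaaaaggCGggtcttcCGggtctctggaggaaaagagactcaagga
Rhox13: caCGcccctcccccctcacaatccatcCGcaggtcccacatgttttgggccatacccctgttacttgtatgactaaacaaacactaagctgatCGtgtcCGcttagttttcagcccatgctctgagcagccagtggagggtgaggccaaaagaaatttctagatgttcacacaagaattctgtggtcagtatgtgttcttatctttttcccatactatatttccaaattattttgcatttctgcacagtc
Rhox1: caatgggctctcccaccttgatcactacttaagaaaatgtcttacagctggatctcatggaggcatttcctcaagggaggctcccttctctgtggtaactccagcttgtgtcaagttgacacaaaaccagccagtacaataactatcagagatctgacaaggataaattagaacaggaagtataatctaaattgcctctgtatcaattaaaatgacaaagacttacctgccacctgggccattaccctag

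The Rhox3a and Rhox3h promoters matched over all 250 bases, with 0 mismatches. Here and below a read is counted once at each CpG it covers, so a count is a sum over CpGs and 1 fragment can add several. Together these promoters held 6 such reads: 4 in iKO replicate 1 for Rhox3a, 2 in iKO replicate 2 for Rhox3h, and 0 in either control. Rhox2a differed from Rhox2c by 1 base and from Rhox2e by 1 base, and Rhox2c and Rhox2e differed by 2 bases. The base that separates Rhox2c from Rhox2a gives Rhox2c 6 CpGs where Rhox2a has 5. At the Rhox2c promoter 2 of 6 reads were methylated in iKO replicate 1 and 2 of 5 in iKO replicate 2, against 8 of 15 and 15 of 16 in the controls. These are 33.3% and 40% against 53.3% and 93.8%, so both iKO libraries lay below both controls. No CpG of this promoter had more than 1 read in either iKO library, so these values may each come from 1 or a few fragments. The Rhox2e promoter went the other way, at 100% (1 read) and 66.7% (9 reads) in iKO and 66.7% (9 reads) and 33.3% (3 reads) in control. At Rhox2a the levels were 46.2% and 100% in iKO, on 13 and 3 reads, and 100% on 5 reads in control replicate 1, with 0 reads in control replicate 2. The Rhox5 and Rhox13 promoters each held 4 CpGs, and the Rhox1 promoter held 0. Rhox5 was at 66.7% and 54.5% in iKO and 25% and 100% in control, on 1 to 11 reads. This promoter precedes a distant annotated start: the part of Rhox5 richest in listed CpGs lay 52000 to 52499 bases after it. Rhox13 was at 50% and 71.4% in iKO and 85.7% in control replicate 2, with 0 reads in control replicate 1.

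A promoter sequence was matched for 28 of the 42 members. These promoters held 122 CpGs, of which 121 were listed in the methylation tables, and the number per promoter ran from 0 to 10. Over all 32851 promoters of the table the median was 6, against 4.5 for Rhox, and 35.6% had more CpGs than the richest Rhox promoter. In 13 of the 28 promoters at least 1 library had 0 reads, and no promoter had more than 24 reads in any library. Promoter levels were therefore not compared further, and the values below pool the CpGs within 2 kb of each gene's start and end.

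Read depth was low across the series and lower at Rhox. The libraries held 64273609 to 79929994 reads over CpGs, with a mean of 3.36 to 4.05 reads per CpG listed in a library over the autosomes and X, and 2.14 to 2.48 on X. Over CpGs listed in any library, the mean per library was 1.77 reads on X, 1.98 in the 500 kb on either side of the cluster and 1.59 in the cluster. Pooled levels over the autosomes and X were 65.5% and 63.3% in iKO and 70.3% and 73.8% in control. Depth over the whole of Ogt, relative to X, was 1.25 and 1.20 in iKO and 1.28 and 1.19 in control, and since the labels do not place the floxed part this does not check the deletion.

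Of the 42 Rhox regions, 37 had fewer reads per CpG than the mean of X. The lowest was Rhox4a, at 0.793 reads per CpG or 0.447 of the X mean, and the highest was Rhox11-ps3, at 1.95 reads. Within copy groups, the depth ranged from 0.793 to 1.71 reads over the 8 Rhox4 copies, from 0.961 to 1.86 over the 9 Rhox3 copies and from 1.20 to 1.72 over the 8 Rhox2 copies. The 9 genes without a lettered copy, namely Rhox1, Rhox5, Rhox6 and Rhox8 to Rhox13, ranged from 1.29 to 1.91 reads, so the groups overlapped in depth. Reads that fit several copies cannot be placed with certainty, and how they were handled is not given in the sources used here. The cluster also held 17 of 110 windows of 10 kb in which no CpG was listed in any library: 9 between Rhox4a and Rhox3a2, 4 before Rhox5 and 4 inside Rhox5.

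**Figure D1:**
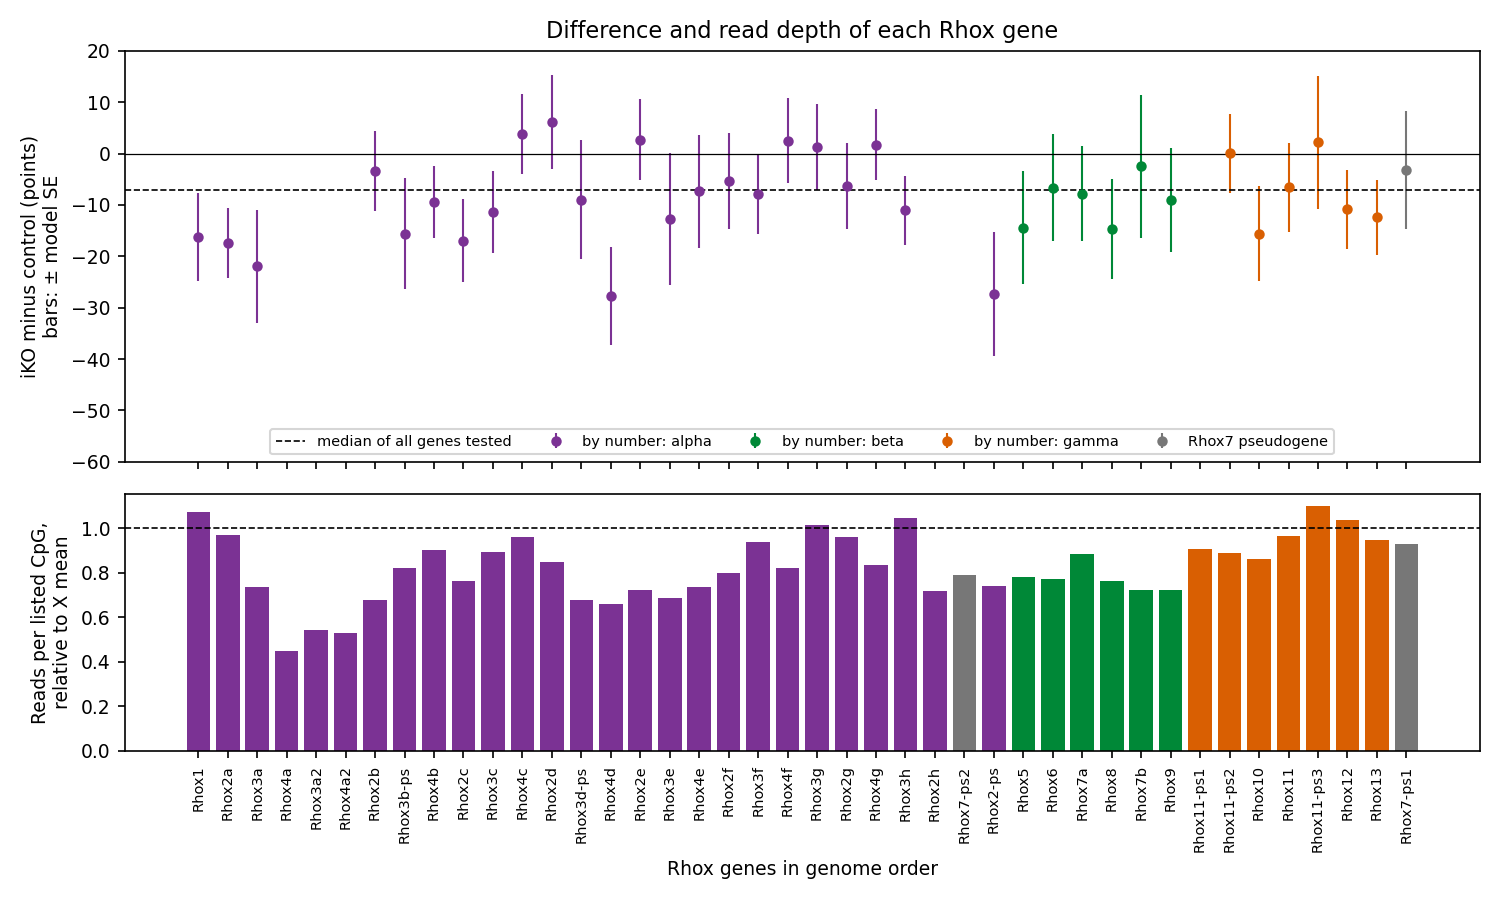
The upper panel gives the difference between the iKO and control means (points, ± model SE) for the 36 tested Rhox genes in genome order, coloured by subcluster, with the median of all genes tested as a dashed line. The lower panel gives the reads per listed CpG relative to the mean of X for all 42 genes; 37 bars lie under 1, the lowest at Rhox4a.

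To compare libraries over the same CpGs, only CpGs read at least once in each of the 4 libraries were used, 878 of the 2790 listed in Rhox regions. A gene was tested when it had at least 5 such CpGs and at least 20 reads in each library, and 36 members passed. Rhox4a, Rhox3a2, Rhox4a2, Rhox2h, Rhox7-ps2 and Rhox11-ps1 did not. Over all listed CpGs, these 6 held 23 to 94 reads per library. Rhox4a kept 3 of its 64 listed CpGs, and over all 64 its levels were 76.6% and 81.4% in iKO and 81.2% and 87.5% in control.

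No single Rhox gene passed the test of iKO against control, and most were lower in iKO, as were most genes of the genome. A gene was called when a quasi-binomial model over all genes gave a Benjamini-Hochberg adjusted p under 0.05 (limma-moderated dispersion) with a difference of at least 10 percentage points. Of the 36 Rhox genes 0 were called, against 3625 of 47658 genes in all, which is 7.61%, and 9 of 1672 genes of X, which is 0.538%. A count of 0 is near the share on X. The count of all genes called rested on single libraries: leaving out control replicate 2 left 6, leaving out iKO replicate 2 left 546 and leaving out control replicate 1 left 2100. Rhox genes and X genes had a median of 53.6 and 56.5 reads per library, against 234.5 over all genes. The median model SE of a Rhox difference was 8.91 points, against 4.49 for all genes, and the part of depth in the count of calls was not tested. At an unadjusted p under 0.05 there were 4 Rhox genes by this model, 7 by edgeR and 14 by limma on logit levels. As shares these are 11.1%, 19.4% and 38.9%, beside 30.3%, 30.5% and 25.6% of all genes by the same tests and 8.37% of X genes by the first.

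Means were lower in iKO for 28 of the 36 tested members and higher for 8. The share lower, 77.8%, was under the 91.4% of all genes and the 84.2% of X genes. The median difference was -8.46 points, against -7.07 over all genes tested and -7.20 over genes of X. Both iKO libraries lay below both controls for 17 members, or 47.2%, a share near the 46.5% of X genes and under the 61.7% of all genes for which this held. Both iKO libraries lay above both controls at 1 of the 36 members, beside 55 of 1672 X genes and 778 of 47658 genes in all. This member was Rhox2e, with 88.5% and 88.5% in iKO and 84.4% and 87.2% in control. With whole genes in place of their sides its difference was -0.289 points. Among the 23 tested alpha members, both iKO libraries lay below both controls at 12, or 52.2%, between the shares of X genes and of all genes. They lay above both at 1, and the order was mixed at the others.

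**Figure D2:**
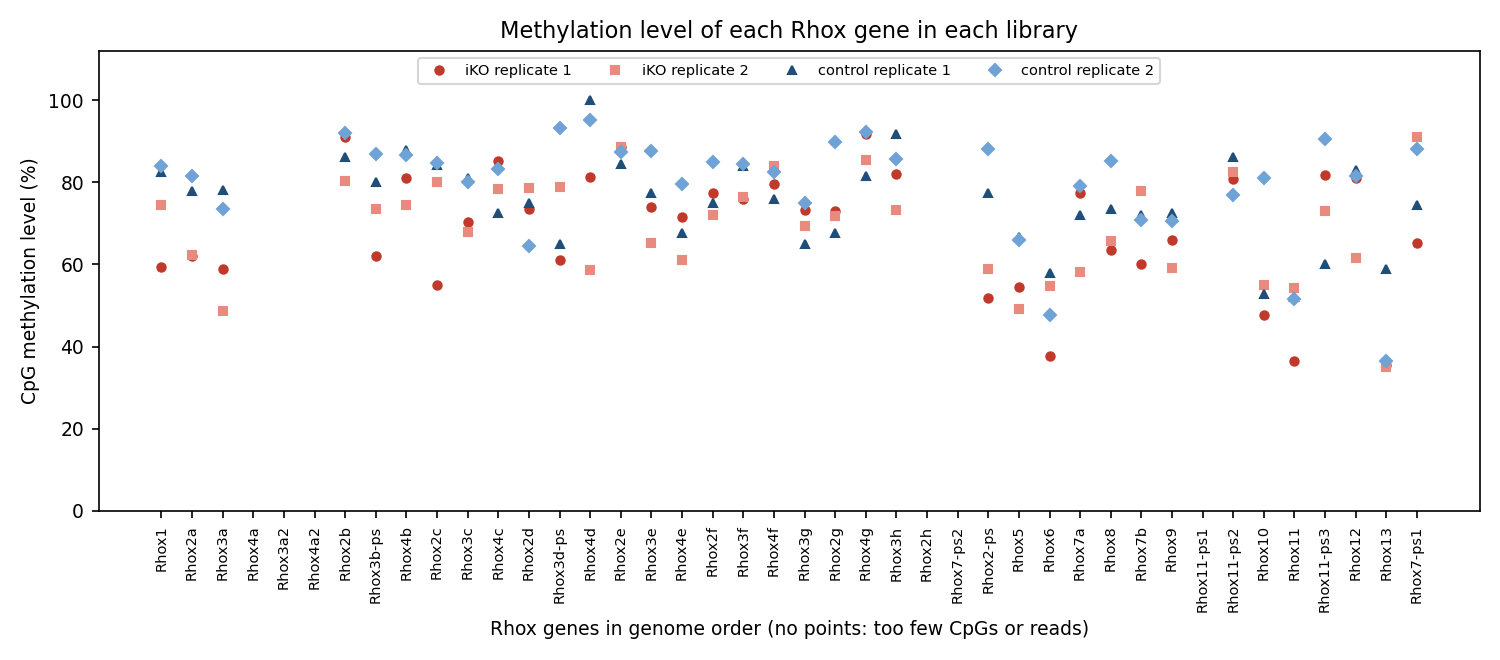
CpG methylation level (%) of each Rhox gene in genome order, 1 point per library. Levels of most alpha copies lie above 60%, and Rhox3a, Rhox5, Rhox6, Rhox10, Rhox11 and Rhox13 include levels under 50%; the 6 genes without points had too few CpGs or reads.

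Pooled over the 878 CpGs, the Rhox regions were at 67.2% in both iKO libraries, at 73.9% in control replicate 1 and at 77.3% in control replicate 2. Both iKO libraries were lower than both controls. The difference was -8.42 points with a pooled SD of 1.70 (n = 2 against 2). In this design the exact permutation test has 6 arrangements, and its smallest two-sided p, 0.33, is the one obtained.

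The genes without a lettered copy had lower levels than the copies and the larger pooled difference. Together they were at 50.3% and 53.9% in iKO and 66.2% and 64.9% in control, a difference of -13.5 points (pooled SD 1.93). Means were lower in iKO at all 9 of them, with differences from -16.3 to -6.59 points, and groups did not overlap at 6, or 66.7%, beside 61.7% of all genes and 46.5% of X genes with both iKO libraries lower. Each library's level in these genes minus its level in the Rhox2, Rhox3, Rhox4 and Rhox7 copies was -25.6 and -20.5 points in iKO and -11.7 and -18.3 in control. The contrast between groups was -7.97 points (pooled SD 4.17; exact permutation p = 0.33, the smallest the design allows, and 0.444 after Benjamini-Hochberg adjustment over 4 such contrasts). Both iKO libraries lay beyond both controls in this contrast, and 2 libraries against 2 could not pass a threshold of 0.05.

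Rhox1, the proximal-most member, had levels of 59.4% and 74.5% in iKO and 82.5% and 84.0% in control, on 50 to 64 reads. Both iKO libraries were lower, by 16.3 points on average (adjusted p = 0.184, quasi-binomial model with limma). Rhox5, the founding member, is known for its expression in Sertoli cells, the epididymis and placenta. Its levels were 54.5% and 49.1% in iKO and 66.7% and 65.9% in control, on 33 to 55 reads. The groups did not overlap, and the difference of -14.4 points had an adjusted p of 0.338 in the same limma-moderated model.

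Rhox6 and Rhox9 are known as placental homeobox genes. Rhox6 was at 37.7% and 54.7% in iKO and 58.0% and 47.6% in control, and the groups overlapped. Rhox9 was at 65.9% and 59.1% in iKO and 72.5% and 70.6% in control, with both iKO libraries lower. Rhox8, which is expressed in Sertoli cells, was at 63.5% and 65.8% in iKO and 73.6% and 85.1% in control, again without overlap. The differences were -6.62, -9.03 and -14.7 points, and the adjusted p-values from the limma-moderated model were 0.556, 0.513 and 0.294. For Rhox6 the direction turned on 1 library, since without iKO replicate 1 its difference was 1.91 points.

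Rhox10, a gene of spermatogonial stem cells, was at 47.8% and 54.9% in iKO and 52.9% and 81.1% in control. Control replicate 2 stood alone there, and the other 3 libraries lay close together. Rhox11 was at 36.4% and 54.3% in iKO and 52.2% and 51.6% in control, which overlap. Its difference of -6.59 points became 2.37 without iKO replicate 1 and 9.77 with sides of 1 kb. Rhox12 was at 81.0% and 61.5% in iKO and 82.9% and 81.4% in control, so iKO replicate 2 alone was far below. Rhox13, a germ cell gene of the testis, was at 35.4% and 35.0% in iKO and 58.9% and 36.4% in control. Here control replicate 1 alone was high, although the groups did not overlap. Adjusted p-values for these 4 genes ran from 0.219 to 0.571 in the quasi-binomial model with limma.

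Among the 8 Rhox2 copies, 7 were tested, with differences from -17.5 points at Rhox2a to 6.20 at Rhox2d and a median of -5.36. Rhox2a was at 62.1% and 62.4% in iKO and 77.9% and 81.5% in control, on 92 to 95 reads, and the replicates lay close together. Its adjusted p was 0.0949 in the limma-moderated model. Rhox2d was at 73.4% and 78.6% in iKO and 75.0% and 64.6% in control, and its groups overlapped. Rhox2c, between them, was at 54.9% and 80.0% in iKO and 84.2% and 84.6% in control, so iKO replicate 1 set most of its difference. Rhox2a and Rhox3a share 27 CpGs of their regions, and 14 members in all share CpGs with a neighbour.

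Rhox3 copies ranged from -22.0 points at Rhox3a to 1.21 at Rhox3g over 8 tested of 9, with a median of -11.2. Both iKO libraries lay below both controls at 6, or 75.0%, beside 61.7% of all genes and 46.5% of X genes. Rhox3a was at 59.0% and 48.6% in iKO and 78.0% and 73.5% in control, on 34 to 50 reads. Rhox3g was at 73.1% and 69.4% in iKO and 65.1% and 75.0% in control, and the sign of its difference changed with the library left out. Rhox4, known also as Ehox from differentiating stem cells, was tested at 6 of its 8 copies. Their differences ran from -27.7 points at Rhox4d to 3.81 at Rhox4c, with a median of -2.84, and 3 of the 6 were lower.

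Rhox4d had the lowest adjusted p among the members, 0.0838 in the limma-moderated model. It was at 81.3% and 58.6% in iKO and 100% and 95.2% in control, on 21 to 32 reads and 14 of its 80 listed CpGs. Both iKO libraries were lower. edgeR gave this gene an adjusted p of 0.0155, and it was the only member called by edgeR; over all alternatives its adjusted p ran from 0.0155 to 0.585. Rhox4c was at 85.1% and 78.3% in iKO and 72.4% and 83.3% in control, with overlap. The 2 Rhox7 copies differed by -7.79 points at Rhox7a and -2.53 at Rhox7b, and both overlapped. Relative to the shift of all genes, -6.25 points, Rhox7b was 3.72 points higher in iKO.

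Rhox2-ps, a pseudogene named here after its values were seen, was at 51.7% and 58.8% in iKO and 77.4% and 88% in control, on 25 to 34 reads. Its difference was -27.4 points with an adjusted p of 0.149 in the limma-moderated model. With every listed CpG it was the only member called, at an adjusted p of 0.0419, and over all alternatives the adjusted p ran from 0.0419 to 0.558. Of the tested pseudogenes and non-coding members outside the lettered copy groups, the other 3, namely Rhox11-ps2, Rhox11-ps3 and Rhox7-ps1, had differences between -3.17 and 2.21 points, all with overlapping groups.

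By subcluster, levels were highest in alpha in every library, and both iKO libraries were lower in each subcluster. Over CpGs read in all 4 libraries gamma was the lowest, but over all listed CpGs beta was lower than gamma in 3 of the 4 libraries. Alpha was at 73.1% and 73.5% in iKO and 78.2% and 83.5% in control, a difference of -7.58 points (pooled SD 2.67). Beta was at 58.1% and 57.1% in iKO and 69.2% and 71.9% in control, or -12.9 points (pooled SD 1.43). Gamma was at 54.4% and 55.0% in iKO and 65.4% and 64.2% in control, or -10.1 points (pooled SD 0.63). Alpha exceeded beta by 15.0 and 16.3 points in iKO and by 9.0 and 11.6 in control, a contrast of 5.36 points (pooled SD 1.47; exact permutation p = 0.33, adjusted 0.444). Contrasts between alpha and gamma and between beta and gamma were 2.50 and -2.86 points, with exact permutation p-values of 1 and 0.33. Alpha exceeded gamma by 18.7 and 18.5 points in iKO and by 12.9 and 19.3 in control. Beta exceeded gamma by 3.69 and 2.14 points in iKO and by 3.87 and 7.68 in control, so both contrasts depended on 1 control library. Beta rests on 120 CpGs and 203 to 260 reads per library.

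**Figure D3:**
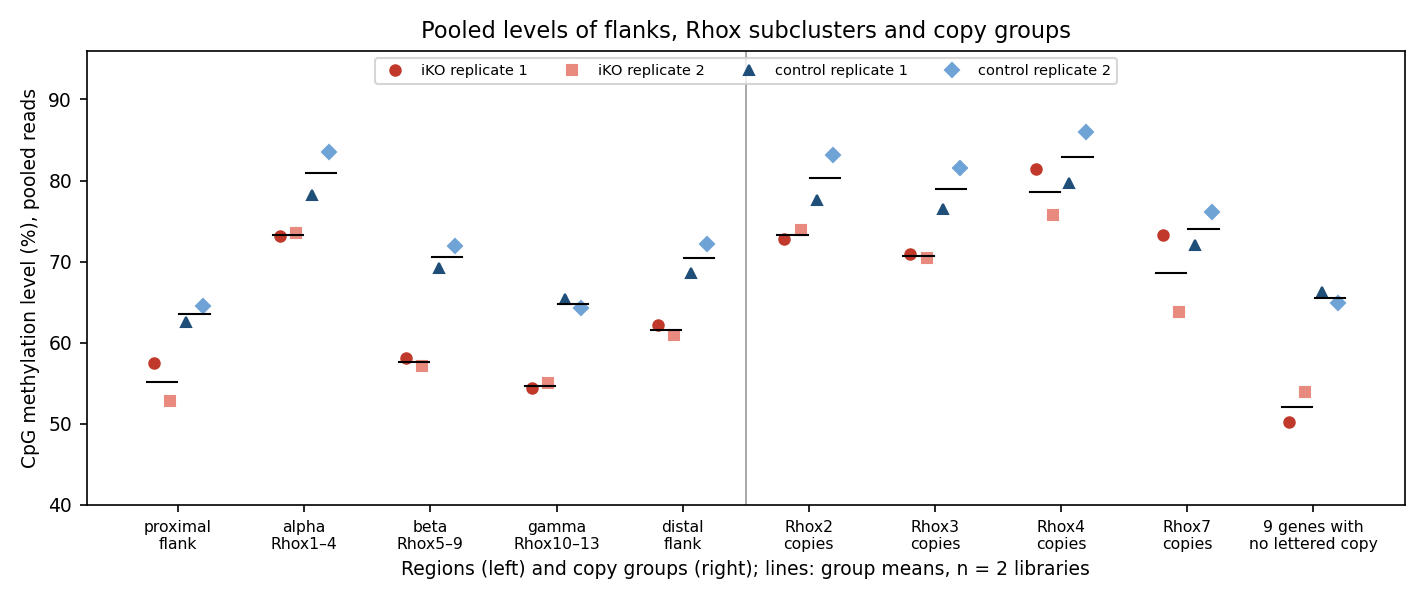
Pooled CpG methylation level (%) of the flanks, the Rhox subclusters and the copy groups, 1 point per library and a line at each group mean (n = 2); the axis starts at 40%. Both iKO libraries lie below both controls in the flanks, the 3 subclusters, Rhox2, Rhox3 and the 9 genes without a lettered copy, but not in the Rhox4 and Rhox7 copies.

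The cluster was compared with its surroundings to ask whether the difference is particular to it. Its interval runs past Rhox13 to base 38308028, the end of the last Rhox-named member plus 2 kb. The stretch beyond Rhox13 was not examined apart. Over the whole interval, 2479 CpGs were at 68.0% and 66.2% in iKO and 72.3% and 76.0% in control, a difference of -7.02 points (pooled SD 2.03). The 500 kb before it, on the side of lower coordinates, were at 57.5% and 52.9% in iKO and 62.6% and 64.5% in control. The 500 kb after it were at 62.2% and 60.9% in iKO and 68.7% and 72.2% in control. Both flanks were lower in iKO, with differences of -8.40 and -8.87 points, and over these CpGs less methylated than the cluster in every library. With at least 3 reads per CpG (58 cluster CpGs) this order turned in iKO replicate 2 and both controls. Cluster minus flanks was then 3.65 and -3.93 points in iKO and -6.13 and -5.81 in control. X as a whole differed by -7.50 points.

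Cluster minus flanks was 8.32 and 9.60 points in iKO and 6.96 and 7.87 in control. The difference of these differences was 1.54 points (pooled SD 0.787; exact permutation p = 0.33, the smallest possible). With Rhox gene regions alone in place of the interval it was 0.140 points (pooled SD 1.62, exact permutation p = 1). With every listed CpG of the whole interval it was 0.463. With the interval outside Rhox gene regions it was 2.25 points (pooled SD 0.548), with unweighted means over CpGs 2.08 (pooled SD 0.542), and against the distal flank alone 1.85 (pooled SD 0.277). In these 3 settings, as in the main one, the stretch compared exceeded its surroundings by more in both iKO libraries than in both controls. Exact permutation gave 0.33 in each. The first of the 3 holds no CpG of a Rhox gene region. Against the proximal flank alone the contrast was 1.38 points (pooled SD 1.64, exact permutation p = 0.667), and the groups overlapped. For the whole interval, no setting printed here gave a larger decrease than in the surrounding sequence. For the Rhox gene regions alone, the difference over all listed CpGs was -9.02 points, beside -8.30 in the flanks.

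**Figure D4:**
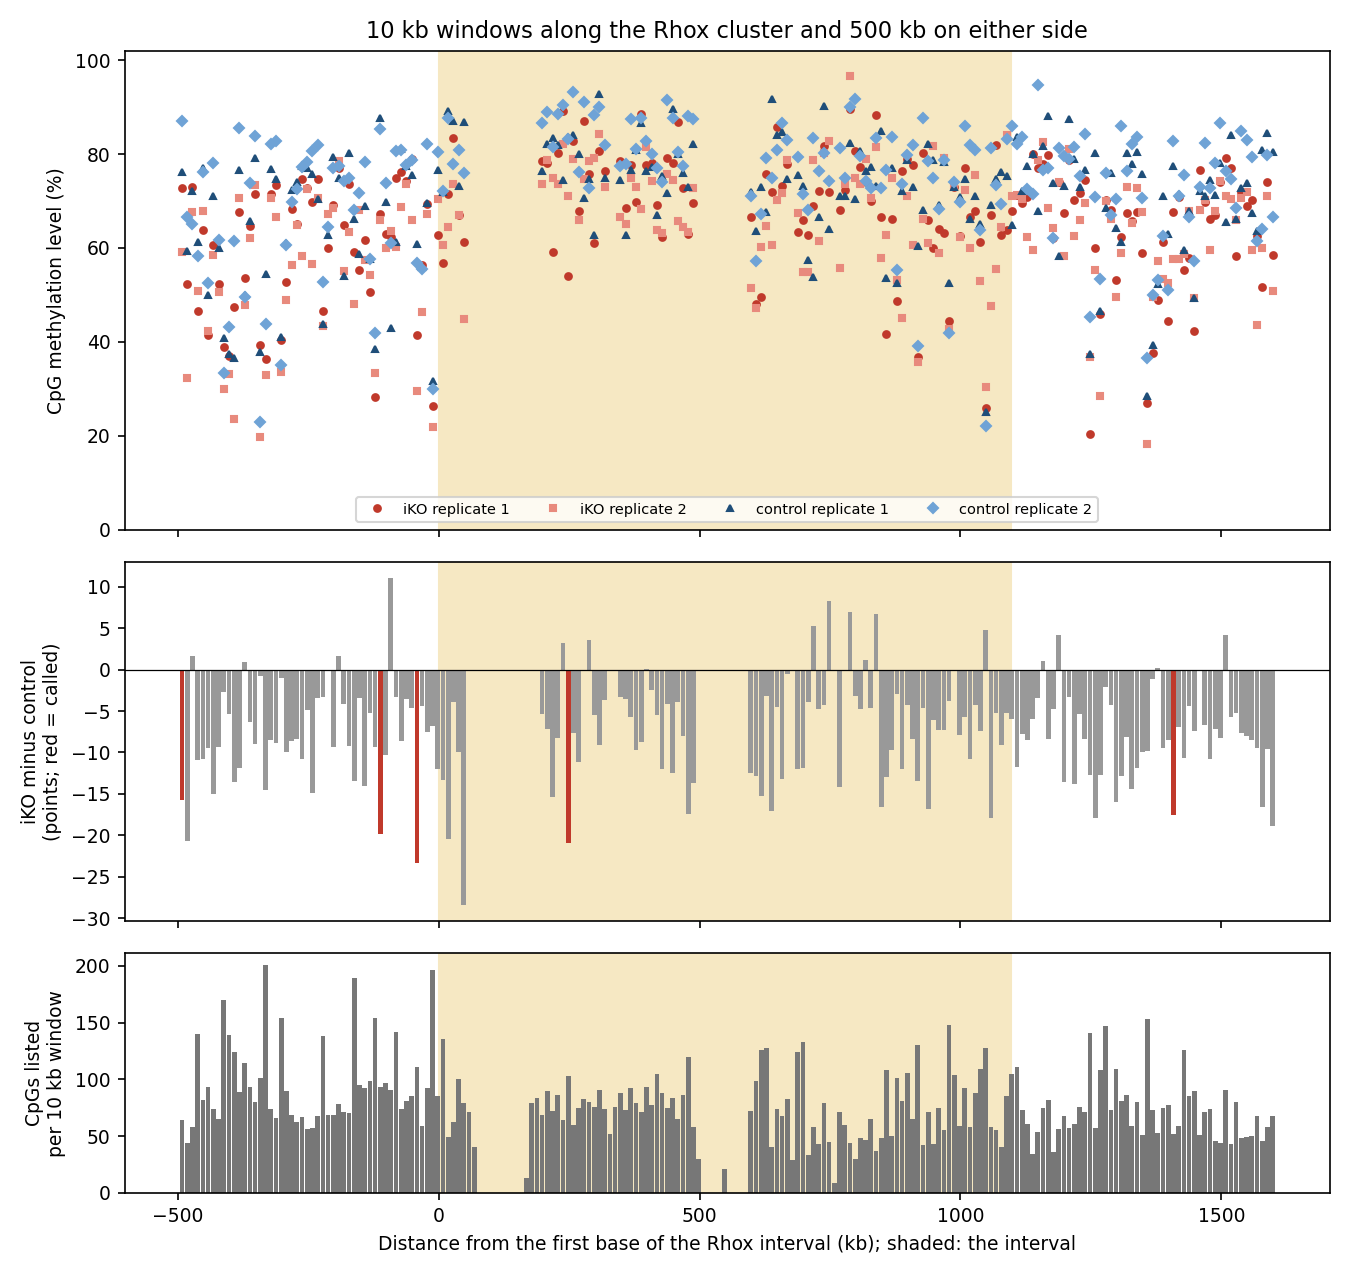
Levels (%) of 10 kb windows in each library, the difference between group means (points, called windows in red) and the number of listed CpGs, against the distance in kb from the first base of the interval, which is shaded. Most windows of the flanks and of the cluster are lower in iKO, with median differences of -8.43 and -5.99 points, and 17 windows of the cluster list no CpG.

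In windows of 10 kb, 82 of the 110 in the cluster and all 100 in the flanks were tested. By the same rule 1 window of the cluster and 4 of the flanks were called, against 43551 of 252072 windows of the autosomes and X, which is 17.3%. A share for windows of X alone is not given here. Among genes, the share called on X was 0.538%, against 7.61% of all genes. Both iKO libraries lay below both controls in 36 windows of the cluster, or 43.9%, and 64 of the flanks, against 71.7% of all windows. The 5 calls in cluster and flanks became 0 without iKO replicate 2, 2 without control replicate 2 and 12 without control replicate 1. Median reads per library were 63.6 in cluster windows, 101.4 in flanking windows and 223 in all windows. Fewer calls went with fewer reads, but the part of depth in the count of calls was not tested. Median differences were -5.99, -8.43 and -7.79 points.

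The called window of the cluster (chrX:37450001-37460000) holds Rhox2c. It was at 53.9% and 71.1% in iKO and 83.6% and 83.1% in control, on 61 to 76 reads, with an adjusted p of 0.0451 in the limma-moderated model. Both iKO libraries were lower, iKO replicate 1 more so. Without iKO replicate 1 the adjusted p was 0.339, and without any other single library it was 0.0630 or more, so the call did not hold with any library left out. It also fell short with the libraries centred (0.649), with every listed CpG (0.0817), with a replicate block (0.109) and by limma on logit levels (0.105). The adjusted p stayed under 0.05 by edgeR (0.0301), without CpGs of more than 10 reads (0.0435) and with depth corrected for C/T variants (0.0451). It did so too in the 5 kb window at the same start (0.0246).

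Within the 500 kb on either side, 34 of 35 annotated genes were tested and 31 were lower in iKO, with differences from -26.1 to 3.40 points and a median of -10.0. The only one called was Slc25a43, which encodes a mitochondrial carrier protein. Its levels were 34.3% and 48.0% in iKO and 64.3% and 60.3% in control, a difference of -21.2 points with an adjusted p of 0.0384 from the limma-moderated model. With any 1 library left out the adjusted p was 0.0578 to 0.320, so this call rested on all 4 libraries. Inside the interval, 14 other annotated genes were tested, 0 were called and 11 were lower, with a median of -6.32 points. The 3 that were higher, Zbtb33, Tmem255a and Gm39507, lay past Rhox13, between bases 38189793 and 38252496. On X as a whole 0.538% of genes were called and 84.2% were lower, and 91.4% of all genes were lower, beside 91.2% of the tested flanking genes and 78.6% of these 14. An unadjusted p under 0.05 in the same model was reached by 7 of the 34 flanking genes, or 20.6%, and by 0 of the 14, beside 8.37% of X genes and 30.3% of all genes.

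Along the genes, levels dipped after the start in every library. For the 28 members with an annotated strand, CpGs on the start side were at 62.6% and 64.7% in iKO and 72.5% and 71.9% in control. On the end side they were at 74.4% and 73.4% in iKO and 76.5% and 81.4% in control. Start minus end differed between groups by -3.47 points (pooled SD 3.15; exact permutation p = 0.667). The spread depended on the setting: with sides of 1 kb the contrast was -5.38 points (pooled SD 0.624), unweighted over CpGs it was -4.61 (pooled SD 0.581) and with every listed CpG it was -4.83 (pooled SD 2.61). In these 3 settings both iKO libraries lay below both controls, with an exact permutation p of 0.33, the smallest the design allows. Without control replicate 1 it was -0.726 points and without control replicate 2 it was -6.22.

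In bins of 500 bases, the first bin after the start was at 63.9% and 65.1% in iKO and 78.6% and 86.0% in control, on 144 to 173 reads. The next bin was at 30.1% and 35.6% in iKO and 48.5% and 38.0% in control, the lowest of the 8 bins in each library. In the third bin levels were 55.3% and 67.3% in iKO and 81.9% and 79.8% in control. The differences of these 3 bins were -17.8, -10.4 and -19.5 points. The iKO libraries were both lower than either control in these 3 bins, in the fourth bin after the start (-4.20 points) and in the bin just before it (-7.16). The other 3 bins before the start differed by -3.12 to 5.46 points. These bins were chosen after the data were seen and carry no test of their own.

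Rhox13 and Rhox11 supplied much of the dip. Without the surroundings of their starts, the second bin was at 52.7% and 62.4% in iKO and 65.2% and 71.1% in control. The first bin was at 69.3% and 66.0% in iKO and 79.3% and 90.1% in control. The differences were -10.6 and -17.1 points. Over all 164 listed CpGs in place of 46, the second bin was at 66.8% and 71.6% in iKO and 71.0% and 78.2% in control, a difference of -5.36 points with overlapping groups. The first bin was then at 67.0% and 67.9% in iKO and 81.5% and 89.2% in control. The third was at 69.9% and 66.9% in iKO and 78.6% and 87.4% in control. In that setting iKO replicate 2 showed no dip, and that of iKO replicate 1 was slight.

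The bin with the most listed CpGs in Rhox13 lay 500 to 999 bases after its start and held 38 CpGs. It was at 2.78% and 8.33% in iKO and 38.9% and 8.06% in control, on 54 to 84 reads. Only control replicate 1 was raised, and control replicate 2 lay within the range of the iKO libraries. In Rhox11 the richest bin was the first, with 19 CpGs at 26.4% and 17.6% in iKO and 35.0% and 34.5% in control. The bin after it was at 5.88% and 0 of 19 reads in iKO, the latter allowing up to 15.8%, and at 8.33% and 12.1% in control. In Rhox11 this stretch was thus weakly methylated in all 4 libraries, and in Rhox13 in 3 of the 4.

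The richest bin was read in the same way in the other genes without a lettered copy, and over all 9 the mean was lower in iKO at 5 and higher at 4. In Rhox1 it lay within the gene, 4000 to 4499 bases after the start, with 19 CpGs. Its levels were 45.2% and 0 of 28 reads in iKO, the latter allowing up to 10.7%, and 46.9% and 29.4% in control. The iKO replicates thus differed more from each other than the group means did. Rhox6 has no strand in the tables used, and its richest bin, the first counted from the end of lower coordinate, was at 20.5% and 41.2% in iKO and 52.9% and 66.7% in control, on 17 to 44 reads. Rhox12 was the other gene with a lower mean, at 38.9% and 50.0% in iKO and 40% and 83.9% in control, which overlap. Rhox8, also without a strand, was higher in both iKO libraries, at 53.3% and 58.1% against 42.9% and 50.0% in control, on 12 to 31 reads. Its richest bin lay outside the gene, past the end of higher coordinate, and both adjacent bins were lower in both iKO libraries. The bin before was at 80.0% and 50.0% in iKO and 90.9% and 100% in control. The bin after was at 45.2% and 57.1% in iKO and 75.0% and 91.3% in control. The other 3 higher means rested on few reads in at least 1 library. Rhox9 was at 5.26% and 37.5% in iKO and 30.8% and 0 of 1 read in control, and Rhox5 was at 80.0% and 0 of 7 reads in iKO, the latter allowing up to 42.9%, and at 42.9% and 33.3% in control. Rhox10 was at 29.6% in iKO replicate 1, with 0 reads in iKO replicate 2 and none methylated among the 5 reads and the 1 read of the controls, too few to bound a low level. These intervals and limits cover counting error only.

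**Figure D5:**
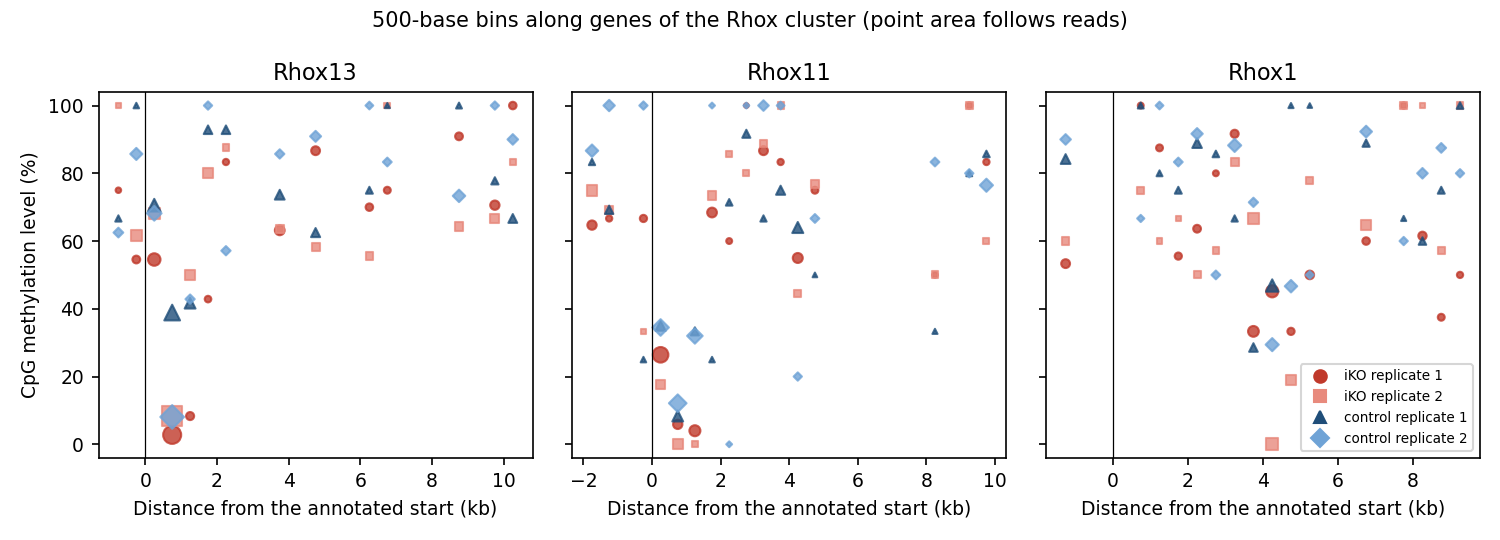
CpG methylation level (%) in 500-base bins along Rhox13, Rhox11 and Rhox1 against the distance from the annotated start in kb, for bins with at least 20 reads over the 4 libraries; the area of a point follows its reads. Rhox13 and Rhox11 dip below 50% just after the start in all 4 libraries, and control replicate 1 stands above the other 3 in the Rhox13 bin at 500 to 999 bases.

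Other gene lists were read with the same test and are described by counts alone. Of 20 genes listed as germline genes silenced by promoter methylation, 5 were called, all lower in iKO. This stands beside 7.61% of all genes tested. The median difference of the list was -9.96 points on a median of 295 reads. Whether each gene is silent in these cells was not tested, and the list includes Zfp42, at a mean of 21.9% in iKO and 29.2% in control. Of 14 homeobox genes outside the cluster, 12 were tested and 2 were called lower, Nobox and Obox6, with a median of -7.59 points. These 2 genes, Ddx4 and Dnmt1 are named after their values were seen. Among 16 regulators and readers of DNA methylation 1 was called lower, Dnmt1, the maintenance methyltransferase, and the median was -5.19 points. These calls rested on single libraries: without control replicate 2, and likewise without iKO replicate 2, no gene of these 3 lists was called by the limma-moderated model.

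The X-linked testis families that also exist in copies resembled Rhox in depth. Of 58 such genes 43 were tested, with a median of 43.3 reads per library, and 0 were called by the limma-moderated model, where 4 had an unadjusted p under 0.05. Means were lower in iKO for 35 of the 43, and the median difference was -7.37 points. These counts were near the shares of X genes, of which 0.538% were called, 8.37% had an unadjusted p under 0.05 and 84.2% were lower.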

How the data were processed

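Genomic DNA of 4 sorted samples was read by whole-genome bisulfite sequencing, and each deposited table holds 1 library, matched by the genotype and replicate in its name. The authors aligned to mm10; BSMAP and Picard are named in the submitters' processing notes, and versions and read filters are not given in the sources used here. Per the file headers, the deposited columns are counts of methylated and of all C or T reads per CpG, an expected count, in which C or T reads are corrected for C/T variants from the opposite strand, and a methylation fraction by the authors, which was not used. The tables used here mark no molecular identifiers, so counts are not independent molecules.

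Methylated and total reads were pooled per library and gene within 2 kb of each start and end, over CpGs that each of the 4 libraries had read. Genes and 10 kb windows with at least 5 such CpGs and 20 reads in each library entered a quasi-binomial logistic model in R 4.3.3, whose dispersion was moderated by limma 3.58.1 with a floor of 1, and Benjamini-Hochberg adjustment over all genes or windows. edgeR 4.0.16 and limma on logit levels (0.5 reads added) were alternatives, and the model was tested on simulated data. For values of whole libraries, a two-sided exact permutation test was run with SciPy 1.17.1. Python 3.11.15, pandas 2.3.3 and NumPy 2.4.6 joined the tables, and Biopython 1.88 aligned promoters. Gene positions and promoters came from RefSeq GRCm38.p6.

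Members and gene lists were chosen with earlier results of these data known. Members without a lettered copy, the copies with the lowest and highest difference per copy group, and the flanking genes called are named. Replicate numbers were taken not to pair the samples.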

Additional observations from a re-analysis of the deposited data

How the results depend on the processing

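The pooled Rhox difference kept its direction under every alternative run, from -10.1 to -6.72 points when 1 library was left out and from -10.1 to -7.66 otherwise. With 2 libraries a group, leaving 1 out cannot move it by more than the pooled SD of 1.70, so this range is no sign of stability. The iKO-minus-control contrast of cluster minus flanks was 0.463 points with every listed CpG and 5.83 with at least 3 reads (58 cluster CpGs). It was 0.663 with 1 Mb flanks, 0.140 with Rhox regions only and 0.900 to 2.18 with 1 library left out. The cause was not tested. The iKO-minus-control contrast of start minus end ran from -6.22 to -0.726 points with 1 library left out. It was -5.38 with 1 kb sides, -4.61 unweighted and -4.83 with every listed CpG, and could not be computed with at least 3 reads. With at least 3 reads no member could be tested.

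Members called numbered 1 with every listed CpG (Rhox2-ps), 1 with edgeR (Rhox4d, adjusted p 0.0155; in the limma-moderated model it was 0.0749 to 0.585 with 1 library left out) and 0 otherwise. Called genes numbered 3625, and 597 with every listed CpG, 1827 with at least 3 reads, 988 with 1 kb sides, 0 with limma on logit levels (12201 at an unadjusted p under 0.05), 1 with libraries centred, and 6 (without control replicate 2) to 2427 with 1 library left out. Without iKO replicate 2 it was 546 and without control replicate 1 it was 2100. Called windows of cluster and flanks numbered 5, and 14 with every listed CpG, 2 with at least 3 reads, 8 with edgeR, 0 with limma on logit levels (52 at an unadjusted p under 0.05), 0 with libraries centred (7 unadjusted), and 0 (without iKO replicate 2) to 12 (without control replicate 1) with 1 library left out.

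Of 285 values of the 21 named genes under alternatives, 261 kept their direction and side of the threshold, 2 passed it (Rhox4d with edgeR, Rhox2-ps with every listed CpG), 9 no longer passed it (all of Slc25a43) and 13 reversed. With 1 library left out, Rhox6 ran from -15.1 to 1.91 points, Rhox11 from -15.5 to 2.37, Rhox3g from -3.76 to 6.18, Rhox4c from -1.65 to 9.27, Rhox7a from -17.3 to 1.74 and Rhox7b from -11.4 to 6.36. Rhox11 was at 9.77 with 1 kb sides, Rhox3g at -0.478 and Rhox2e at -0.289 with whole genes, Rhox2e at -1.97 with the unweighted mean over CpGs, Rhox4c at -1.96 with every listed CpG and Rhox7b at 3.72 with libraries centred, which moves every gene by the same amount.

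The labels give replicate numbers without saying what they share, and the deviations of same-numbered libraries correlated at -0.0376 over genes, so the numbers were not taken to pair the samples. With a replicate block 2716 genes, 0 members and 1 window of cluster and flanks were called. The iKO-minus-control contrasts of cluster minus flanks (1.54) and of start minus end (-3.47) are then the same values. Fits that leave out a library take the remaining sample of that group to vary like the other group. Low depth limits all member-level statements.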
